A study of Homo sapiens with 10 samples.

Results

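Where SMARCB1 and BRD9 lay relative to each other on chromatin was compared in G401 cells after SMARCB1 had been switched back on. The comparison used 5 peak lists of the 10 samples in the series, 2 for SMARCB1 and 3 for BRD9, restricted to chromosomes 1 to 22 and X. Peaks of the 5 lists that overlapped by 1 bp or more were merged into 206479 regions. A region was classed as SMARCB1 only when both SMARCB1 lists and 0 of 3 BRD9 lists held a peak in it (59403 regions). It was classed as BRD9 only when 3 of 3 BRD9 lists and 0 of 2 SMARCB1 lists did (2436 regions), and as shared when all 5 lists did (11735 regions). The other 132905 regions were called in some lists of a protein but not all, and were not classed.

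G401 is a human rhabdoid tumour line with the genotype SMARCB1(-/-), and all 5 samples carried a doxycycline-inducible SMARCB1 that was induced. The labels give neither the dose nor the length of the induction. CUT&RUN was used, in which an antibody tethers a nuclease that cuts out the DNA around its target. SMARCB1 was targeted with a rabbit monoclonal antibody of Cell Signaling Technologies and BRD9 with a rabbit polyclonal antibody of abcam. The SMARCB1 libraries held 64.2 and 59.7 M (mega) reads and the BRD9 libraries 12.1, 10.1 and 13.9 M. Peaks were scored against a control library of 49.6 M reads in both SMARCB1 lists and of 23.1 M reads in the BRD9 lists. Antibody, library size and control library therefore changed together with the protein and cannot be told apart from it. The labels do not say whether replicates came from separate cultures, so no p-value reaches beyond the spread between these lists. In the limma fits used further on, that spread was also pooled over regions or chromosomes. At shared regions the pooling gave 8.60 of the 11.6 degrees of freedom.

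SMARCB1 is a core subunit of canonical BAF and of PBAF, large SWI/SNF remodelling complexes that move or evict nucleosomes at enhancers and promoters. BRD9 is a bromodomain protein that marks a further SWI/SNF assembly, non-canonical BAF, which does without SMARCB1. Rhabdoid tumours arise through loss of SMARCB1. A region that holds peaks of both proteins can therefore be occupied by different complexes, in the same cell or in different cells, which peak lists do not resolve.

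SMARCB1 peaks were more numerous than BRD9 peaks, and less dense in reads. The SMARCB1 lists held 133127 and 161500 peaks and the BRD9 lists 44399, 38127 and 40299. The means were 147314 ± 20063 (SD, n = 2) and 40942 ± 3185 (SD, n = 3), a 3.60-fold difference. SMARCB1 peaks covered 149 and 195 Mb, against 35.6, 28.7 and 30.6 Mb for BRD9. These peaks took 26.1 and 35.9% of the reads of the SMARCB1 libraries and 15.1, 13.4 and 12.6% of those of the BRD9 libraries. In each of these measures the SMARCB1 lists lay above all BRD9 lists.

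Read density is given as RPKM, the reads per kilobase of a list's own peak and per M reads of its library. The median peak had 1.42 and 1.40 RPKM in the SMARCB1 lists and 3.13, 3.39 and 3.01 RPKM in the BRD9 lists. The log2 difference of SMARCB1 from BRD9 was -1.17, and the lists did not overlap. A smaller library needs a higher density to reach the same number of reads, and the median peak held 55 and 53 reads in the SMARCB1 lists against 23, 19 and 23 in the BRD9 lists. Median widths were close, at 625 and 650 bp for SMARCB1 and 602, 552 and 550 bp for BRD9, a log2 difference of 0.17. The width difference grew to 1.60 on the log2 scale when every list was reduced to its 38127 peaks of best score. That number was the whole of BRD9 replicate 2, against 133127 and 161500 peaks in the SMARCB1 lists. The cut thus left out mainly SMARCB1 peaks of lower score, and the lists were then compared over unlike parts. All 5 measures (number, width, covered length, density and reads in peaks) separated the proteins without overlap and gave the smallest p that 2 lists against 3 allow (two-sided exact permutation tests, p = 0.2, adjusted p = 0.2).

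Most reproducible BRD9 regions lay at reproducible SMARCB1 regions, whereas the reverse held for a minority, as the numbers of regions required. Of the 14499 regions with a peak in 3 of 3 BRD9 lists, 80.9% (95% Wilson interval 80.3 to 81.6%) had a peak in both SMARCB1 lists and 16.8% had none. Of the 87410 regions with a peak in both SMARCB1 lists, 13.4% (13.2 to 13.7%) had a peak in 3 of 3 BRD9 lists and 68.0% had none. With only 14499 regions in 3 of 3 BRD9 lists, most of the 87410 could not have had such peaks, whatever the overlap. The intervals cover counting error over regions only. Shared regions made up 5.68% of all merged regions, SMARCB1 only regions 28.8% and BRD9 only regions 1.18%. The sizes of the classes depended on which peaks were taken and on the number of lists asked for. With the same number of top peaks in every list there were 10598 SMARCB1 only, 3417 BRD9 only and 9595 shared regions. Without SMARCB1 replicate 1 or 2, when 1 SMARCB1 list sufficed, SMARCB1 only regions numbered 130002 and 101437, and without BRD9 replicate 2 there were 3937 BRD9 only regions.

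**Figure D1:**
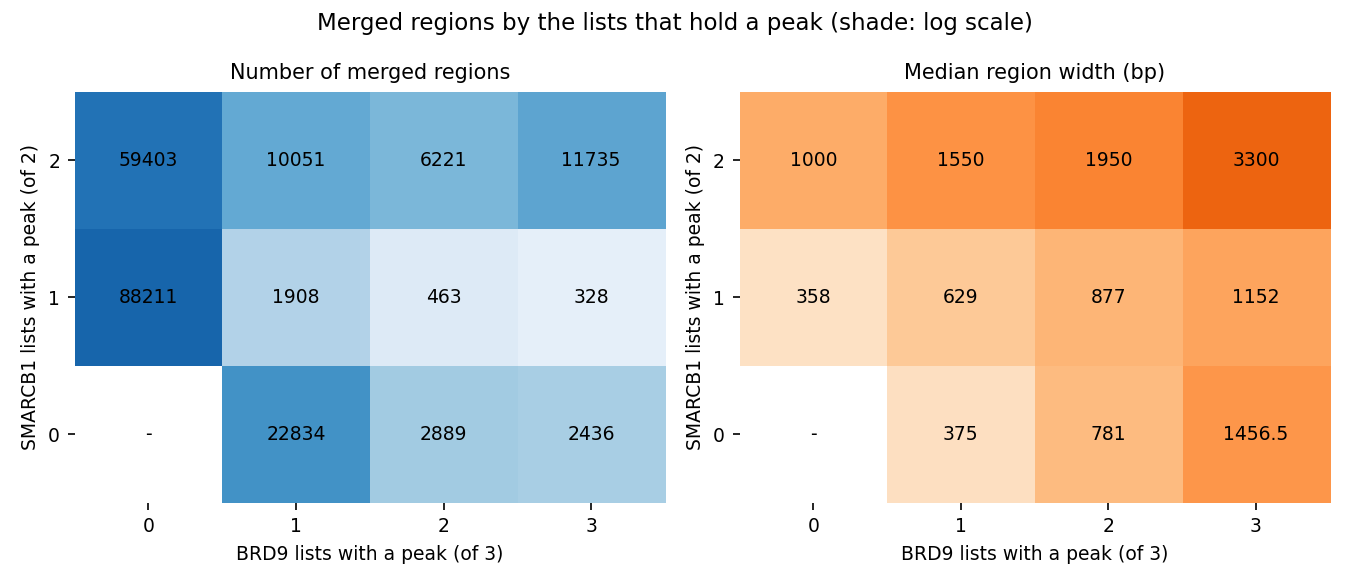
Number (left) and median width in bp (right) of merged regions by the number of SMARCB1 lists (vertical, of 2) and BRD9 lists (horizontal, of 3) that hold a peak, shaded on a log scale. Regions in both SMARCB1 lists have a median of 1000 bp with 0 BRD9 lists and 3300 bp with 3, and only 328 regions had 3 BRD9 lists and 1 SMARCB1 list.

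Shared regions were the widest class. The median width was 3300 bp for shared, 1456.5 bp for BRD9 only and 1000 bp for SMARCB1 only regions. At least 10 kb was reached by 1340 shared regions (11.4%), 57 SMARCB1 only and 37 BRD9 only regions. Shared regions covered 62.0 Mb, SMARCB1 only regions 77.3 Mb and BRD9 only regions 5.15 Mb. A union over 5 lists is wider than one over 2 or 3 by construction, so widths were also compared within single lists, as described further on. The widest shared region spanned 193248 bp on chromosome 7 (80347976 to 80541224 in build hg19), with 3.18 and 3.86 RPKM in the SMARCB1 lists and 5.01, 5.40 and 4.86 RPKM in the BRD9 lists.

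SMARCB1 signal was higher with each further BRD9 list that held a peak. In SMARCB1 replicate 1 the median density of regions in both SMARCB1 lists was 1.39 RPKM with 0, 1.505 with 1, 1.61 with 2 and 1.86 with 3 BRD9 lists. Replicate 2 gave 1.41, 1.60, 1.75 and 2.08 RPKM in the same order. The SMARCB1 width per region ranged alongside from 675 to 2700 bp in replicate 1 and from 875 to 3125 bp in replicate 2. When those 87410 regions were ranked by SMARCB1 density into 10 equal groups, 3 of 3 BRD9 lists held a peak in 1.14% of the lowest and 65.6% of the highest group. The share was 0.131% for regions narrower than 500 bp and 86.0% for regions of 10 kb or more. These are descriptions over regions, and a wider region also has more room for a BRD9 peak.

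Within each SMARCB1 list, peaks at shared regions were wider and denser than peaks at SMARCB1 only regions. The median width was 1700 against 625 bp in replicate 1 and 2615 against 825 bp in replicate 2, a mean log2 difference of 1.55 ± 0.16 (SD, n = 2). The median density was 1.73 against 1.39 RPKM in replicate 1 and 2.01 against 1.40 RPKM in replicate 2, a mean log2 difference of 0.42 ± 0.14 (SD, n = 2). Both lists moved the same way in both measures, and an exact sign-flip permutation test of 2 lists cannot go below p = 0.5, the value it gave. A shared SMARCB1 peak held a median of 189 and 312 reads, against 55 and 70 reads at SMARCB1 only regions. The classes were defined by calls, and wide, dense peaks are also the ones a second list calls most readily.

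BRD9 peaks did not follow this pattern. Their median width at shared against BRD9 only regions was 794 against 1044 bp in replicate 1, 744 against 728 bp in replicate 2 and 767 against 725 bp in replicate 3. The lists disagreed in sign, with a mean log2 difference of -0.094 ± 0.26 (SD, n = 3; exact sign-flip permutation test, p = 1). It was 0.045 without BRD9 replicate 1. Their median density was 3.703 against 3.51, 3.78 against 3.53 and 3.33 against 3.14 RPKM. It was higher at shared regions in 3 of 3 lists by a mean log2 difference of 0.086 ± 0.010 (SD, n = 3), at the smallest p that 3 lists allow (exact sign-flip permutation test, p = 0.25).

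The control library behaved differently under the peaks of each protein. Under SMARCB1 peaks its median density was 0.461 and 0.440 RPKM at SMARCB1 only regions and 0.447 and 0.432 RPKM at shared regions, nearly level. Under BRD9 peaks it was 0.467, 0.498 and 0.507 RPKM at BRD9 only regions and 0.971, 0.998 and 0.981 RPKM at shared regions, a mean log2 difference of 1.004 ± 0.052 (SD, n = 3). The sample over control ratio of a BRD9 peak was therefore lower at shared than at BRD9 only regions, by a mean log2 difference of -0.84 ± 0.098 (SD, n = 3), in 3 of 3 lists. In SMARCB1 peaks that ratio was higher at shared regions, by 0.50 ± 0.11 (SD, n = 2), in 2 of 2 lists. The deposited SMARCB1 files are named as having used GFP as the negative control, and the BRD9 files do not name theirs. The part of the control in the class differences was not tested.

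**Figure D2:**
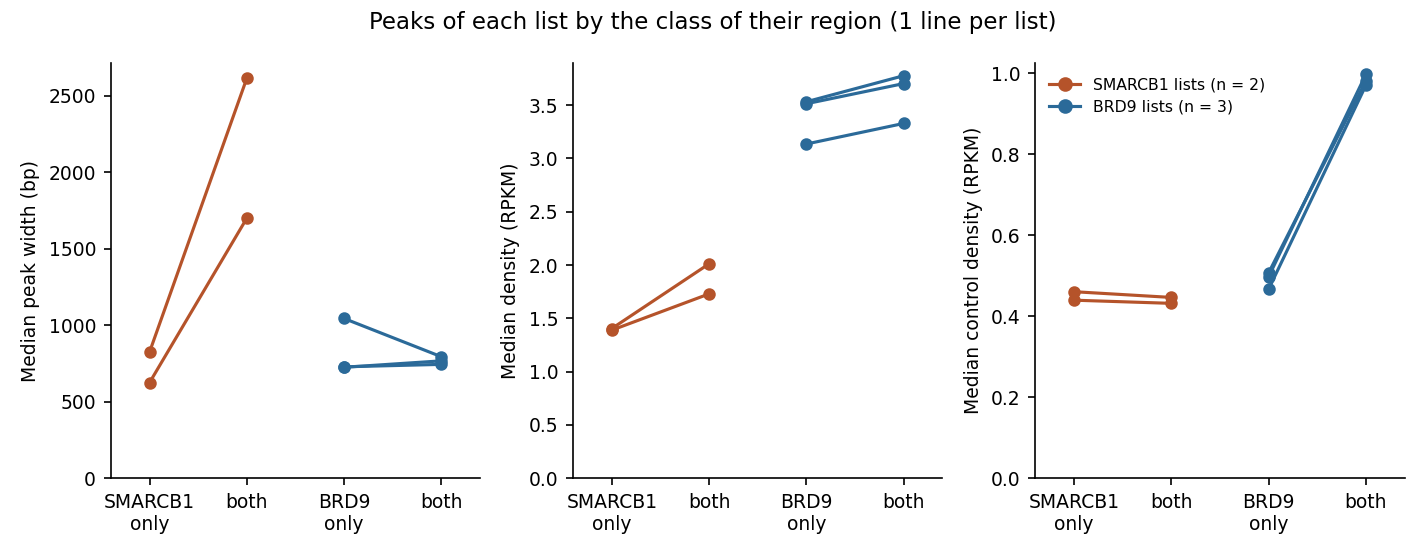
Median peak width in bp (left), sample read density in RPKM (middle) and control read density in RPKM (right) of the peaks of each list, at regions of its own protein only and at shared regions, with 1 line per list (SMARCB1 n = 2, BRD9 n = 3). Width is higher at shared regions by over 2-fold in both SMARCB1 lists and in no BRD9 list, and control density lies at 0.467 to 0.507 RPKM under BRD9 only peaks and at 0.971 to 0.998 RPKM under shared BRD9 peaks.

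Inside shared regions SMARCB1 formed the broad domain and BRD9 the narrower peaks within it. SMARCB1 peaks covered a median of 2700 and 3125 bp of a shared region, or 86.7 and 97.9% of its width. BRD9 peaks covered 1025, 950 and 1012 bp, or 34.2, 32.1 and 33.7%. The mean covered length was 2912.5 ± 301 bp (SD, n = 2) for SMARCB1 and 996 ± 40.1 bp (SD, n = 3) for BRD9, a 2.93-fold difference without overlap (two-sided exact permutation test, p = 0.2, the smallest possible). Of the BRD9 peaks in shared regions, 82.5 to 84.2% lay wholly within a peak of SMARCB1 replicate 1, and 89.9 to 91.3% within a peak of replicate 2. A shared region held a median of 324 and 387 SMARCB1 reads against 47, 38 and 48 BRD9 reads, so the flanks of BRD9 domains were sampled less deeply than those of SMARCB1.

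The summits of both proteins lay close together. In the 4633 shared regions with a single peak in each of the 5 lists, the median distance between summits was 135 to 145 bp for the 6 pairs of a SMARCB1 with a BRD9 list. It was 107 bp between the SMARCB1 replicates and 97 to 99 bp between BRD9 replicates. Summits were within 200 bp in 63.4 to 65.9% of these regions between proteins, in 65.2% between the SMARCB1 lists and in 73.6 to 74.5% between BRD9 lists. In these regions the median distances between proteins were thus larger than both within-protein medians, by less than 50 bp. The shares within 200 bp did not separate the between-protein pairs from the SMARCB1 pair. Over all 11735 shared regions the medians were 188 to 199 bp between proteins. They were 161 bp between the SMARCB1 lists and 120 to 125 bp between BRD9 lists. The 10 pairs reuse the same 5 lists, so no test was made of them.

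Read densities at shared regions tracked each other less between the proteins than within them. Over the 11735 shared regions Spearman's rho was 0.88 between the SMARCB1 lists, 0.62 to 0.65 between BRD9 lists and 0.42 to 0.45 between a SMARCB1 and a BRD9 list. These are correlations across regions, which are not independent replicates, and lists of 1 protein share antibody and control. They were not corrected for the lower read numbers of the BRD9 lists.

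BRD9 only regions were the smallest class and had the shortest median gap between neighbours. The order of the gaps changed away from long peak-free stretches, as described further on. The gap to the nearest region of the same class had a median of 1175 bp for BRD9 only, 3775 bp for SMARCB1 only and 14125 bp for shared regions. Set against the even spacing of each class over the chromosomes, these gaps were ratios of 0.000971, 0.0760 and 0.0562. Within 10 kb of another region of their class lay 75.7% of BRD9 only, 70.1% of SMARCB1 only and 43.7% of shared regions. Clusters of at least 5 regions, with gaps of at most 10 kb, held 55.9% of BRD9 only regions, 28.6% of SMARCB1 only and 6.97% of shared regions. The largest BRD9 only cluster had 61 regions in 210 kb of chromosome X (61682001 to 61892451). The order of the classes by the share within 10 kb depended on the calls used. With the same number of top peaks per list the shares were 59.8% for BRD9 only, 32.8% for SMARCB1 only and 42.0% for shared regions. With a call in at least 1 of 2 SMARCB1 or 2 of 3 BRD9 lists they were 68.3, 86.5 and 50.01%. SMARCB1 only was also above BRD9 only without SMARCB1 replicate 1 (85.2 against 74.5%) or 2 (81.5 against 71.0%), and by under 1 point without BRD9 replicate 2 or 3.

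**Figure D3:**
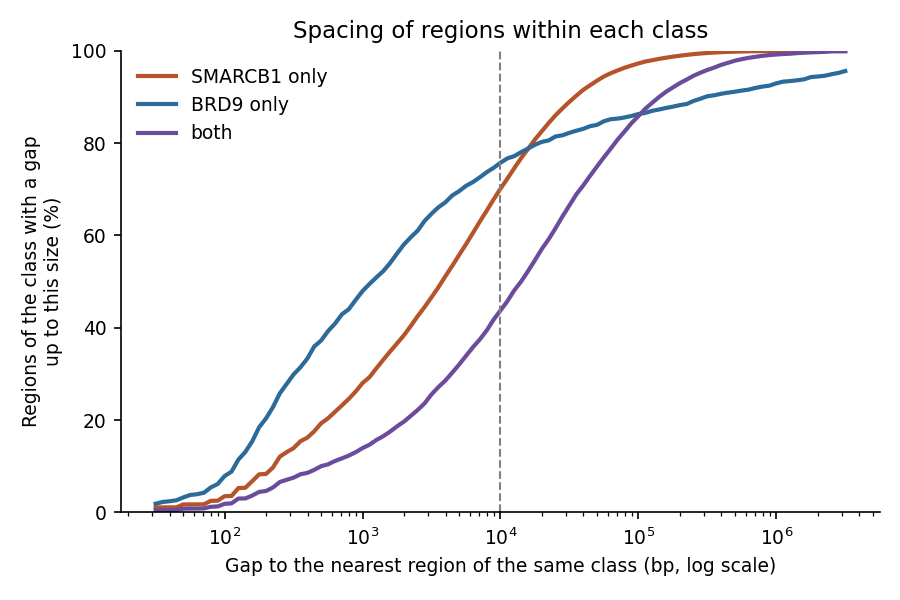
Cumulative share of regions (%) against the gap to the nearest region of the same class (bp, log scale) for SMARCB1 only, BRD9 only and shared regions, with a dashed line at 10 kb. The BRD9 only curve starts highest, with 75.7% of regions within 10 kb, and is overtaken by the SMARCB1 only curve before 50 kb, where they reach 83.9 and 93.5%.

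The BRD9 only clusters were concentrated beside long stretches without any peak. There were 30 stretches of 2 Mb or more in which no list had a peak, on all 23 chromosomes, 7 of them on X and 5 at the start of a chromosome (13, 14, 15, 21 and 22). Centromeres and the short arms of those 5 chromosomes are largely unassembled in build hg19. Within 1 Mb of such a stretch lay 1290 of 2436 BRD9 only regions (53.0%, 95% Wilson interval 51.0 to 54.9%), against 0.683% of SMARCB1 only and 0.741% of shared regions. These flanks made up 1.93% of the chromosome span outside the stretches. The single window of 1 Mb with the most BRD9 only regions, 136, was on chromosome 7 from 61 to 62 Mb, and the 20 fullest windows held 40.6% of the class. The corresponding share was 3.49% for SMARCB1 only and 6.08% for shared regions.

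Single lists gave the same picture. Within 1 Mb of a stretch lay 0.702 and 0.744% of the peaks of the SMARCB1 lists and 8.24, 8.14 and 8.06% of those of the BRD9 lists. BRD9 only peaks in these flanks had a median density of 3.73, 3.67 and 3.29 RPKM, against 3.30, 3.38 and 2.98 RPKM for BRD9 only peaks elsewhere. Their control density was 0.514, 0.554 and 0.571 RPKM, against 0.397, 0.430 and 0.412 RPKM elsewhere. Sample and control were thus both higher in the flanks in 3 of 3 lists. The BRD9 lists also held 1682, 1478 and 1631 peaks on unplaced or patch sequences, which are left out here, and the SMARCB1 lists held 0. The part of the control and of the sequences kept for mapping in these calls was not tested.

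Of the 1146 BRD9 only regions away from the stretches, 229 (19.98%) lay on chromosome 19, a chromosome known for its clusters of zinc finger genes. The share was 2.00% for SMARCB1 only and 4.15% for shared regions. BRD9 only peaks there had a median density of 3.18, 3.20 and 2.88 RPKM, close to the 3.30, 3.38 and 2.98 RPKM of all BRD9 only peaks away from the stretches. Their control density was lower, at 0.182, 0.209 and 0.206 RPKM, so that their log2 ratio of sample to control was 3.91, 3.64 and 3.54. The fullest windows on chromosome 19 were 37 to 38 Mb with 35 regions and 12 to 13 Mb with 29. Chromosomes 9 and 16 followed, with 12.7 and 10.8% of the regions away from the stretches, and the fullest window was on chromosome 16 from 33 to 34 Mb, with 56. Away from the stretches 56.1% of BRD9 only regions had another of their class within 10 kb, against 70.1% of SMARCB1 only and 43.9% of shared regions. The median gap there was 5355.5 bp for BRD9 only, above the 3775 bp of SMARCB1 only and below the 13950 bp of shared regions.

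BRD9 only and SMARCB1 only regions were also unequal in how far they lay from the other protein. The nearest peak region of BRD9 was a median of 10.7 kb from a SMARCB1 only region, and the nearest SMARCB1 region 93.9 kb from a BRD9 only region. A region of the other protein lay within 10 kb of 48.5% of SMARCB1 only and 15.6% of BRD9 only regions. It lay beyond 100 kb for 8.38% and 48.9%.

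The proteins divided their peaks differently over the chromosomes. Chromosomes 21, 19 and 8 held a larger share of BRD9 than of SMARCB1 peaks, and chromosomes 22, 17 and 1 the reverse. In all, 13 of 23 chromosomes passed limma's test on the log2 share with a Benjamini-Hochberg adjusted p under 0.05 (56.5%). The share was higher in the SMARCB1 lists for 7 of them (30.4% of the chromosomes: 1, 3, 6, 10, 15, 17 and 22) and higher in the BRD9 lists for 6 (26.1%: 5, 8, 13, 19, 21 and X). Lists of the proteins overlapped only on chromosomes 12, 14 and 18, so a lack of overlap does not set the chromosomes past the threshold apart. Shares of a list sum to a whole, so a gain on some chromosomes lowers the others. Without SMARCB1 replicate 1, with the spread taken from the BRD9 lists alone, the number passing was 8, and the calls on chromosomes 5, 6, 10, 13 and X were lost in at least 1 of the alternatives.

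Chromosome 19 held 2.29 and 2.37% of SMARCB1 peaks and 5.55, 5.20 and 5.003% of BRD9 peaks. The lists did not overlap, and the share was 2.25-fold higher for BRD9 (log2 of SMARCB1 over BRD9 -1.17 ± 0.052 SE, limma adjusted p = 1.56e-06). Chromosome 21 held 0.873 and 0.870% of SMARCB1 peaks and 2.23, 1.97 and 1.97% of BRD9 peaks, a 2.35-fold higher share for BRD9 (log2 -1.24 ± 0.062 SE, limma adjusted p = 1.76e-06). Leaving out peaks within 1 Mb of the long stretches changed chromosome 21 more than chromosome 19. The log2 difference became -0.59 for chromosome 21 and -1.11 for chromosome 19, both still past the threshold, and on chromosome X it turned from -0.25 to 0.051.

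In the other direction, chromosome 22 held 1.68 and 1.68% of SMARCB1 peaks and 1.03, 1.10 and 1.11% of BRD9 peaks, a 1.56-fold higher share for SMARCB1 (log2 0.64 ± 0.044 SE). Chromosome 17 held 4.30 and 4.18% against 2.92, 3.18 and 3.19%, a 1.37-fold higher share (log2 0.45 ± 0.050 SE). On both chromosomes the SMARCB1 lists lay above all BRD9 lists, which also held for chromosomes 2, 4, 7, 9 and 20 that did not pass. Both passed limma's test under each alternative that kept both SMARCB1 lists. The remaining chromosomes past the threshold had log2 differences between -0.36 and 0.33.

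**Figure D4:**
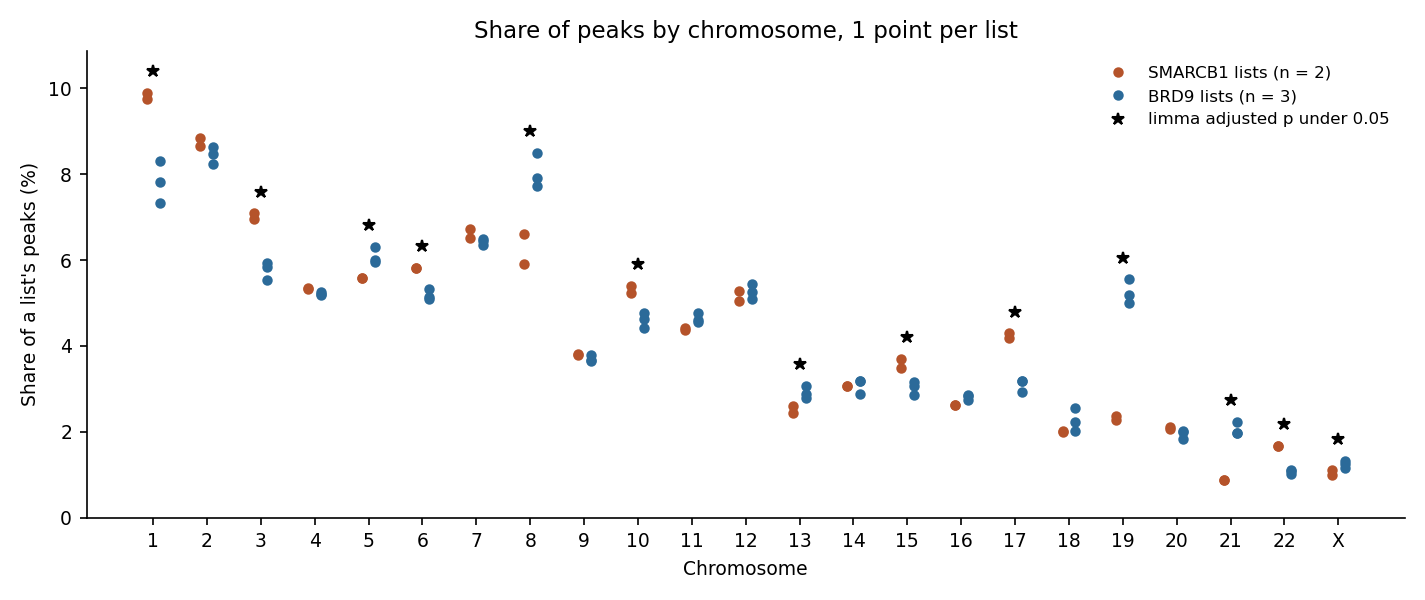
Share of each list's peaks (%) on chromosomes 1 to 22 and X, with 1 point per list (SMARCB1 n = 2, BRD9 n = 3) and a star where limma's adjusted p is under 0.05. Chromosome 19 shows the widest separation in percentage points, with SMARCB1 at 2.29 and 2.37% and BRD9 between 5.003 and 5.55%.

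At the 11735 shared regions, each list gives its own reads, so the proteins could be compared region by region after each list was centred on its median log2 density. BRD9 was denser relative to SMARCB1 at 1087 regions (9.26% of those tested) and SMARCB1 was denser relative to BRD9 at 800 (6.82%), by limma with a Benjamini-Hochberg adjusted p under 0.05. In all of these the 2 SMARCB1 lists and the 3 BRD9 lists did not overlap. That also held for 4032 of the 9848 regions that were not called, so it does not set the called regions apart. Differences of 2-fold or more were seen at 48 BRD9-denser and 4 SMARCB1-denser regions. The medians were -0.55 and 0.51 on the log2 scale. Density is measured over each list's own peaks, so a broad peak with long flanks has a lower value than its summit.

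The number of calls was lower with a single SMARCB1 list. Without replicate 1 there were 55 SMARCB1-denser and 242 BRD9-denser regions, and without replicate 2 there were 31 and 155. In these fits the spread comes from the 3 BRD9 lists alone, and the lone SMARCB1 list is assumed to vary like them. Using the ratio of sample to control density in place of sample density gave 2885 and 3380 calls, among them 496 of the 800 and 636 of the 1087. The direction was kept at 653 of the 800 and 856 of the 1087, and turned at the others. Regions with at least 50 reads in every list gave 665 and 717 calls of 3727 tested. Quantile normalization in place of centring gave 945 SMARCB1-denser and 801 BRD9-denser regions. Which protein had more calls thus depended on the normalization.

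**Figure D5:**
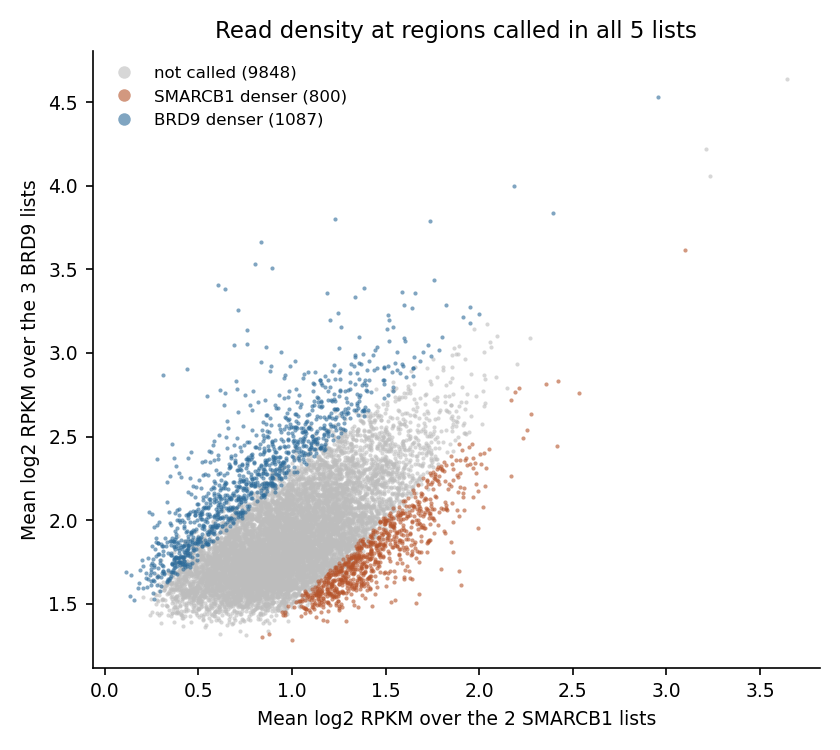
Mean log2 RPKM over the 3 BRD9 lists (vertical) against mean log2 RPKM over the 2 SMARCB1 lists (horizontal) at the 11735 shared regions, 1 point per region, coloured by limma's call. BRD9-denser regions (1087) form the upper left edge and reach farther from the main body than SMARCB1-denser regions (800) at the lower right.

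SMARCB1-denser regions were wider than BRD9-denser ones. Their median width was 5962.5 bp, against 2775 bp for BRD9-denser and 3225 bp for regions not called. Of shared regions of 10 kb or more, 19.1% were SMARCB1 denser and 6.12% BRD9 denser. Below 1000 bp the shares were 3.25% and 15.4%. The median log2 difference went from -0.17 in the narrowest to 0.14 in the widest of the 5 width classes. The width of a shared region was mostly that of its SMARCB1 peaks, which covered a median of 86.7 and 97.9% of it. Among the 87410 regions in both SMARCB1 lists, the group of highest SMARCB1 density was also the widest, with a median of 3450 bp. The part of this link in the trend was not tested.

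The strongest BRD9-denser regions lay together on the short arm of chromosome 6, which carries the major histone gene cluster of the human genome. The genes within the regions were not determined here. All 5 regions with the largest differences were between 26 and 28 Mb. The first ran from 26042295 to 26051451 and had 1.69 and 1.89 RPKM in the SMARCB1 lists against 10.95, 14.5 and 12.8 RPKM in the BRD9 lists. Relative to the median shared region of each list, BRD9 was 3.82-fold denser than SMARCB1 there (log2 -1.93 ± 0.12 SE, limma adjusted p = 6.45e-06). SMARCB1 was below its own median over shared regions in both lists, and BRD9 was far above its own in 3 of 3.

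The next region ran from 26156433 to 26160676, with 1.59 and 1.46 RPKM for SMARCB1 and 9.94, 11.5 and 10.4 RPKM for BRD9 (log2 -1.91 ± 0.12 SE). The region from 27856401 to 27864071 had 1.44 and 1.69 RPKM for SMARCB1 and 9.17, 12.1 and 10.3 RPKM for BRD9 (log2 -1.85 ± 0.12 SE). The remaining pair, from 26213551 to 26229201 and from 26020276 to 26037201, had log2 differences of -1.84 and -1.72. In all 5 the control density stayed between 0.569 and 0.906 RPKM in the BRD9 lists and between 0.571 and 0.770 RPKM in the SMARCB1 lists. With sample over control density the differences were larger, from -2.39 to -3.22.

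Over the whole stretch from 26 to 28 Mb of chromosome 6, 29 of 66 shared regions were BRD9 denser and 0 were SMARCB1 denser. Over all shared regions 9.26% were BRD9 denser and 6.82% SMARCB1 denser. The median log2 difference in the stretch was -0.37. The stretch was set by where the 5 largest differences lay, and the 29 include them. The stretch also held 44 SMARCB1 only and 2 BRD9 only regions, so SMARCB1 was called there as well. Of the next 5 regions by size of difference, a set named after its values were seen, 3 more lay in this stretch (26053401 to 26058651, 26122051 to 26127476 and 27094480 to 27103951). The other pair were on chromosome 11 (3674726 to 3676087) and chromosome 1 (149856281 to 149860651). The chromosome 11 region differed from the rest in its control density, 5.17 to 5.90 RPKM in the BRD9 lists.

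Chromosome 19 also leaned to BRD9 at shared regions, with 105 of 498 BRD9 denser (21.1%) and 6 SMARCB1 denser (1.20%). The shares over all shared regions were 9.26 and 6.82%. Chromosome 6 had 124 of 792 BRD9 denser (15.7%) and 38 SMARCB1 denser (4.80%). On chromosome 19 the window from 43 to 44 Mb held 55 shared regions, the most of any window, and 28 of them were BRD9 denser. Further windows rich in BRD9-denser regions were chromosome 6 from 140 to 141 Mb, with 16 of 43, and chromosome 13 from 90 to 91 Mb, with 12 of 22. SMARCB1-denser regions were most frequent on chromosome 15 (46 of 366, 12.6%) and chromosome 7 (66 of 619, 10.7%). Their fullest window was chromosome 15 from 35 to 36 Mb, with 10 of 26.

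The largest differences towards SMARCB1 were smaller. The region on chromosome 6 from 166701626 to 166702738 had 3.60 and 3.87 RPKM for SMARCB1 and 2.72, 3.52 and 2.97 RPKM for BRD9 (log2 1.18 ± 0.13 SE, limma adjusted p = 0.000503). The region on chromosome 5 from 124742376 to 124750555 had 3.39 and 4.08 RPKM for SMARCB1 and 3.18, 3.91 and 2.75 RPKM for BRD9 (log2 1.09 ± 0.13 SE). In both, SMARCB1 was well above its median over shared regions, and BRD9 was near or below its own. The region on chromosome 12 from 1199901 to 1203029 and that on chromosome 13 from 31001376 to 31006526 had log2 differences of 1.02 and 0.98. The region on chromosome 13 from 111539376 to 111540369 had a log2 difference of 1.05 that turned to -1.02 with sample over control density. The control under its SMARCB1 peaks was 2.59 and 2.14 RPKM against 1.10 to 1.33 RPKM under its BRD9 peaks.

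Regions were also ranked within each class by the authors' score, the −log10 of the false discovery rate, averaged as a rank over the lists that hold them. The 5 highest BRD9 only regions were very dense and all within 1 Mb of a long peak-free stretch. The densest was on chromosome 8 from 46847676 to 46856480, with 56.0, 58.4 and 47.3 RPKM, where the control library had 11.9 RPKM in all 3 lists. The highest ranked was on chromosome 20 from 29827951 to 29830039, with 20.3, 20.5 and 26.6 RPKM and a control density of 6.54, 5.98 and 9.84 RPKM. The other 3 were on chromosome 4 between 49093151 and 49660190, with means from 17.4 to 33.7 RPKM and control means from 4.66 to 9.92 RPKM. At these 5 regions the control library was thus at least 4.49 RPKM in every BRD9 list, against medians of 0.467 to 0.507 RPKM over all BRD9 only peaks.

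The 5 highest away from the stretches, a set named after their values were seen, had mean densities from 20.02 to 53.0 RPKM and mean control densities from 6.83 to 16.5 RPKM. They lay on chromosome 4 (68264126 to 68266883), chromosome 9 (67319576 to 67321056 and 66832926 to 66836001), chromosome 18 (106426 to 111151) and chromosome 2 (89874151 to 89880153). In that order they were 15.6, 1.73, 1.25, 15.3 and 2.45 Mb from the nearest stretch. The BRD9 only class therefore held its most extreme members where the control was dense, although the typical member was not.

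The highest SMARCB1 only regions had none of this control signal. The first was on chromosome 5 from 124706101 to 124714576, with 2.54 and 2.90 RPKM and a control density of 0.391 and 0.381 RPKM. The one on chromosome 15 from 63840076 to 63849476 spanned 9400 bp at 2.45 and 2.77 RPKM. The others, on chromosomes 18 (34041876 to 34044627), 2 (68677026 to 68681276) and 20 (37091301 to 37093076), had means of 2.14 ± 0.176, 1.97 ± 0.132 and 2.66 ± 0.303 RPKM (SD, n = 2). Mean control density ranged from 0.333 to 0.462 RPKM over the 5. The first lies near the SMARCB1-denser shared region on chromosome 5 described above.

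Among shared regions the highest ranked pair lay close together on chromosome 22, from 18717276 to 18719376 and from 18720776 to 18721820. The first had 7.76 and 7.72 RPKM for SMARCB1 and 16.3, 28.1 and 27.2 RPKM for BRD9, but also 4.72 and 4.66 RPKM and 7.99 to 12.5 RPKM of control. The next was a domain of 53199 bp on chromosome 8 (58861406 to 58914605), with 3.93 and 4.42 RPKM for SMARCB1 and 8.20, 9.07 and 7.85 RPKM for BRD9. The others were 17325 bp on chromosome 6 (140166651 to 140183976) and 56050 bp on chromosome 12 (65880351 to 65936401). There SMARCB1 had means of 4.08 ± 0.471 and 3.46 ± 0.483 RPKM (SD, n = 2) and BRD9 7.31 ± 0.456 and 8.11 ± 0.596 RPKM (SD, n = 3). In the last pair the mean control density was 0.403 and 0.485 RPKM under SMARCB1 and 1.10 and 1.57 RPKM under BRD9.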

How the data were processed

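Peak lists from CUT&RUN on 5 samples (2 SMARCB1, 3 BRD9) were used. Per the submitters' processing notes, BWA 0.7.12-r1039, SAMtools and bedtools were used with builds hg19, GRCh37 and ASM584v2. The peak caller is not given in the sources used here. Each deposited list holds 1 sample, so peaks were not called on pooled replicates. The deposited lists give read counts of sample and control in each peak, the same values as RPKM, a log2 difference of sample and control, and a score, the −log10 of the authors' false discovery rate, which was at least 3.98 in every list, per the file headers and values. Library sizes were recovered from counts and RPKM.

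Densities of a region sum a list's peaks in it. Two-sided exact permutation tests compared the lists, exact sign-flip permutation tests compared classes within lists, and chromosome shares and shared regions were fitted with limma 3.58.1 (eBayes, with trend for shared regions) in R 4.3.3, on the log2 scale, with Benjamini-Hochberg adjustment. Merging was checked against brute force (40 comparisons, 0 differed). In simulated shared regions 200 of 200 planted log2 differences of 1.5 were recovered, with 3 other calls. The planted size was above the largest SMARCB1-denser difference (1.18) and far from the medians of the calls (0.51 and -0.55). The same spread was used for all lists. Recovery at the size of most calls was therefore not checked. The rule named the 5 regions of best mean rank per class, the 5 largest differences in each direction among shared regions past the threshold, and the chromosomes past it. Members, lists and tests were chosen with earlier results of these data known. Other settings tried were the better-scoring part of each list, equal numbers of top peaks (38127), other overlap, merging, class and neighbour rules, covered base pairs, sample over control density (counts raised by 1), quantile normalization, a minimum of 50 reads, leaving out each list and a replicate block. Leaving out regions near long peak-free stretches was added after seeing the data. Python 3.11.15 with numpy 2.4.6, pandas 2.3.3, scipy 1.17.1 and matplotlib 3.10.9 was used. Gene annotation and sequence of hg19, and peaks outside chromosomes 1 to 22 and X, were not used here.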

Additional observations from a re-analysis of the deposited data

Results flagged for a closer look

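The control library was nearly level between region classes in the SMARCB1 lists and differed between them in the BRD9 lists. The log2 difference of its median density, shared minus own-only regions, was -0.035 in the SMARCB1 lists (lower in 2 of 2) and 1.004 in the BRD9 lists (higher in 3 of 3). The log2 ratio of sample to control differed by 0.50 in the SMARCB1 lists and -0.84 in the BRD9 lists, again with every list of a protein on the same side. The difference between the proteins was itself not tested.

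Outside the chromosomes compared, the BRD9 lists held 1682, 1478 and 1631 peaks on unplaced or patch sequences of the assembly, where the SMARCB1 lists held 0.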

How the results depend on the processing

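Of 377 recomputed values, 306 counted as unchanged: differences kept their sign and, where tested, their side of the threshold, counts stayed within 1.5 times, and clustering shares within their 95% interval. Where the test was an exact permutation test, the side of the threshold could not change, so only the sign counted. A difference that changed in size alone counted as unchanged, such as peak width per list (log2 0.17, and 1.60 with equal top peaks). The log2 width difference of BRD9 peaks, shared over BRD9 only, reversed to 0.033 with equal top peaks and 0.064 with a call in at least 1 of 2 or 2 of 3 lists. Without one list it ran from -0.077 to 0.045. The share of chromosome X reversed to 0.051 without regions near the stretches, and the shared region on chromosome 13 at 111539376 to -1.02 with sample over control density. For SMARCB1 only, BRD9 only and shared regions, the upper part by score gave 35548, 1604 and 7521, and the looser call rule 147614, 5325 and 18747. Equal top peaks gave 10598 SMARCB1 only regions, and merging anew without the peaks near the stretches gave 1147 BRD9 only regions (1146 when classed before leaving them out). Without one list they ran from 62654 to 130002, 2498 to 3937 and 12164 to 14186, since fewer calls were then asked for. The shares with a neighbour of their class were 55.8, 69.6 and 32.0% within 5 kb and 93.5, 83.9 and 74.9% within 50 kb. Within 10 kb they were 32.8, 59.8 and 42.0% with equal top peaks and 86.5, 68.3 and 50.01% with the looser rule, and 56.2% for BRD9 only in the merge without the peaks near the stretches. Without one list they ran from 71.5 to 85.2%, 71.0 to 74.5% and 44.9 to 46.2%. Chromosomes past the threshold numbered 8 to 15 without one list. Sample over control density gave 2885 SMARCB1-denser and 3380 BRD9-denser regions, and a minimum of 50 reads, with fewer regions tested, 717 BRD9-denser ones. Without one list the calls ran from 31 to 835 and from 155 to 1165.

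Replicate numbers 1 and 2 occur for both proteins, but same-numbered lists did not deviate together (r = -0.00094 over 11735 shared regions). With a replicate block the log2 differences were 1.83 for peak number, 0.14 for width and -1.21 for density, 12 chromosomes passed, and 1097 and 1495 shared regions were called. The calls on chromosomes 5 and 6 were lost with the block, and chromosome 18 gained one (log2 -0.24, limma adjusted p = 0.0423).

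The exact permutation tests could not reach 0.05 with 2 and 3 lists, so only their directions are informative. Promoter shares and sequence features by class were not run, since no annotation or genome of build hg19 was used here. BRD9 density rests on 38 to 48 reads in a median shared region.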
